A study of Mus musculus with 5 samples.

Results

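The genes described here are the mouse receptor tyrosine kinase genes Pdgfra, Kit and Kdr with their neighbours Fip1l1 and Chic2 on chromosome 5, and the receptor genes Pdgfrb and Csf1r, which adjoin each other on chromosome 18. These 7 genes were chosen by name and found by their symbols among 21779 protein-coding genes of the RefSeq table for GRCm38.p6, the assembly behind mm10. Peaks of CTCF, a zinc finger protein of insulators and chromatin loop anchors, were taken from each gene body and 200 kb on each side. The peaks came from chromatin immunoprecipitation and sequencing in NIH3T3, a mouse embryonic fibroblast line. All libraries came from cells that stably express H2B-mCherry, the rtTA3G transactivator and a TRE3G-controlled, doxycycline-inducible gene for the homeobox factor CDX2. Doxycycline was given for 6 h (500 ng/µL in the labels) before 2 of the 4 CTCF immunoprecipitations, and the other two and the single input had none. The deposited list of 22756 peaks merges both conditions and ties no peak to a library, so the effect of CDX2 induction was not analysed here and no value has a replicate spread. It gives positions without heights or scores, the depth behind each peak is unknown, and an unlisted stretch may have lacked mappable reads. The list holds no expression values, so the fibroblast label could not be checked against marker genes.

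PDGF receptors alpha and beta bind platelet-derived growth factors and drive the growth and migration of fibroblasts and other mesenchymal cells. KIT, the receptor of stem cell factor, and CSF1R, the receptor of macrophage colony-stimulating factor, belong to the same class of receptor tyrosine kinases, and KDR is the main VEGF receptor of endothelial cells. The neighbouring receptor genes are thought to descend from ancient duplications, yet they are used in different cell types. In human leukaemia with eosinophilia a deletion that takes out CHIC2 fuses FIP1L1 to PDGFRA, and in human glioma the loss of a CTCF site between FIP1L1 and PDGFRA has been linked to PDGFRA activation. CTCF sites can halt cohesin and so separate the regulatory surroundings of neighbouring genes. The present data locate CTCF only and do not measure loops or expression.

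Promoter sequences from RefSeq (build GRCm38.p6, 250 bases before to 50 after a start site) were set against the positions of the CTCF peaks. The table held entries for the 5 genes on chromosome 5, and none of these windows was touched by a peak. Over all 32851 promoter windows, 3.59% overlapped a peak. In the stretch from 200 kb before Fip1l1 to 200 kb after Kdr, the window of 1 long non-coding RNA, Gm52779, between Lnx1 and Chic2 did overlap one. It is printed because its capitals, 100 bases from base 201 on, are the only bases of a peak in this stretch that the sequence tables held. The Pdgfra and Kit promoters are printed because their starts stood nearest to and farthest from a peak among the 5, and their capitals mark CCCTC, the letters that gave CTCF its name, on either strand (GAGGG on the strand shown).
Gm52779 promoter, chr5:74944238-74944537, minus strand: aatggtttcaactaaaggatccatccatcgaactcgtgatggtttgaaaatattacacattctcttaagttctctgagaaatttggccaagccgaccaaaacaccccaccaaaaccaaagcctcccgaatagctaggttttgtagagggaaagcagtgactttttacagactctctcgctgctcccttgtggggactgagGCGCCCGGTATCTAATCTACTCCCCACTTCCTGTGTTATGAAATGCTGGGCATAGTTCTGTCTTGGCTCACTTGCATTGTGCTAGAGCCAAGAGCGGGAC
Pdgfra promoter, chr5:75152001-75152300, plus strand: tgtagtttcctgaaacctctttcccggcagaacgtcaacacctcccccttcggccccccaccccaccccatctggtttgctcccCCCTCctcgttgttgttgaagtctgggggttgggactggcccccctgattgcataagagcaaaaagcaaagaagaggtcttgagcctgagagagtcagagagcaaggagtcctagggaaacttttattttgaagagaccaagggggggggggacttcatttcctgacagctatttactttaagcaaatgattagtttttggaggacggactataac
Kit promoter, chr5:75574737-75575036, plus strand: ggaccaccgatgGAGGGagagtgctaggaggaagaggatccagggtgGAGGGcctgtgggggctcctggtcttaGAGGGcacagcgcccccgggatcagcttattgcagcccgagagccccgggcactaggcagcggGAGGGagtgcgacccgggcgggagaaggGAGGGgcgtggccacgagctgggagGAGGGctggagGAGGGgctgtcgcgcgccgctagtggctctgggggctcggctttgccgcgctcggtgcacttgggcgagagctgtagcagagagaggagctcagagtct

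The Pdgfra window held 1 CCCTC match and the Kit window 7, all 7 on the opposite strand. Windows of Fip1l1, Chic2 and Kdr held 1 each. At least 1 match was present in 66.0% of all promoter windows, so these letters are common. The fixed bases of the longer CTCF core motif, which are CCA, AG and GGC with 2 free bases after CCA and 2 after AG, were searched on both strands and found in none of the 5 genes' windows, nor in that of Gm52779. They occurred in 2.43% of all windows, in 17.1% of the 1179 windows overlapped by a peak and in 1.88% of the 31672 others. The peak bases of Gm52779 held no CCCTC match. A match is a string of letters and not a measured site. The sequences of the remaining peaks were not analysed here.

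Pdgfra held more CTCF peaks in its body than any of the other six genes and had a further peak near each end. The body (gene ID 18595, chr5:75151322-75198206, plus strand) held 3 peaks. They stood at chr5:75155670-75155968, chr5:75156239-75156544 and chr5:75157106-75157322, with midpoints 3.57, 4.14 and 4.96 kb after the start site. Together they spanned 1653 bp, with gaps of 270 and 561 bp between them, and their widths were 299, 306 and 217 bp against a median of 262 bp for the whole list. Such crowding was uncommon. Each of the 3 had 2 others within 2 kb. Among all 22755 peaks on chromosomes 1 to 19, X and Y, 0.958% had 2 or more others so near. Of the 7582 protein-coding genes of 20 to 100 kb, the size class of all 7 genes, 6.30% had 3 or more peaks in the body. These values rest on the list as deposited. With peaks under 500 bp apart merged, the first 2 of the body become a single peak. The Pdgfra body with 200 kb each side then held 7 peaks instead of 8. The body count and the crowding were not recomputed under merging.

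The first peaks outside Pdgfra lay near both of its ends. On the side of the start, a peak of 201 bp at chr5:75143327-75143527 ended 7.79 kb before the body. On the far side, a peak of 242 bp at chr5:75209987-75210228 began 11.8 kb after it. From the first to the second, these 5 peaks covered 66.9 kb with Pdgfra inside. Pdgfra was the 1 gene of the 5 on chromosome 5 with a peak inside or at most 10 kb away, and 50.8% of all protein-coding genes had one there. The start of Pdgfra lay nearer to a peak than most: 16.3% of 17492 protein-coding genes with a start site in the promoter table were nearer, and their median distance was 23.4 kb.

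**Figure D1:**
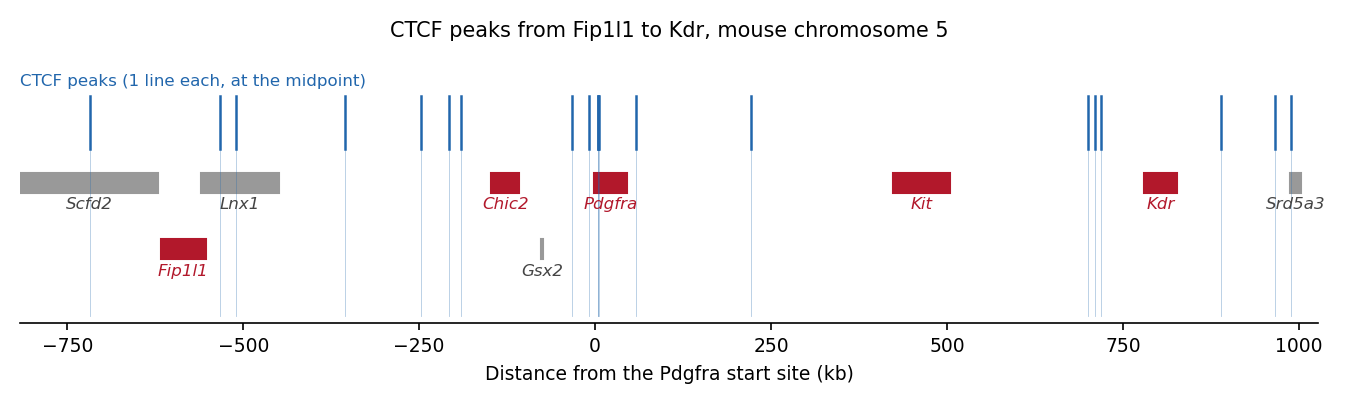
Map of the chromosome 5 stretch, with distance from the Pdgfra start site in kb on the horizontal axis, the named genes in red, other protein-coding genes in grey and each CTCF peak as a blue line at its midpoint. The 3 peaks in the Pdgfra body merge into a thick line near 0, and Kit sits alone in the longest stretch without a line.

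Kit, which encodes the stem cell factor receptor of blood, germ and pigment cells, lay in the longest stretch without a CTCF peak on either of the 2 stretches described. Its body (gene ID 16590, chr5:75574987-75656722, plus strand) held no peak. The nearest peaks ended 202 kb before it and began 196 kb after it, so Kit stood near the middle of a peak-free span of 480 kb. Of 22734 gaps between neighbouring peaks of the list, 4.40% were at least as long, and the median gap was 32.5 kb. Read over genes, such spans were less rare, since 19.5% of all protein-coding genes lay whole in a peak-free span at least as long as that of Kit. The start of Kit was 202 kb from the nearest midpoint, and 86.5% of genes with a listed start were nearer to a peak.

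The window of Kit, its body and 200 kb each side, held 1 peak, the fewest of the 7. Of all protein-coding genes, 12.0% had fewer and 7.1% had the same number. The Kit count turned on where the window ended. The peak on the Pdgfra side lay just beyond the 200 kb and that on the Kdr side just within it. With 100 kb on each side the count was 0, and with 500 kb it was 13.

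Kdr, the VEGF receptor gene, was framed by peaks at almost equal distance. Its body (gene ID 16542, chr5:75932827-75979072, minus strand) held none. The last peak on the Kit side ended 61.4 kb from it and the first on the other side, chr5:76040874-76041115, began 61.8 kb from it. The peak-free span around Kdr was 169 kb, and 14.3% of all gaps between peaks were at least as long. The start of Kdr, on the side away from Kit, was 62.5 kb from that peak, which is 242 bp wide. Its window held 6 peaks, 3 on each side, which equals the median of 6 over all protein-coding genes.

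Fip1l1, a subunit gene of the machinery that forms messenger RNA 3′ ends, had no peak in its body (gene ID 66899, chr5:74535438-74598790, plus strand). It lay between a peak in the body of Scfd2, 101 kb before it, and a peak in the body of Lnx1, a ubiquitin ligase gene that overlaps its far end, 20.0 kb after it. These bounded a span of 185 kb, and 13.2% of all gaps were at least as long. Its window held 4 peaks, 1 on the lower and 3 on the higher side. The outermost of them was just within the 200 kb.

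Chic2, which encodes a membrane-associated protein with a cysteine-rich stretch, shared a peak-free span of 157 kb with the homeobox gene Gsx2. Its body (gene ID 74277, chr5:75005004-75044641, minus strand) held no peak. The nearest lay 43.5 kb away on the Fip1l1 side and 74.3 kb away on the Pdgfra side. The window of Chic2 held 9 peaks because it reached the peaks of Pdgfra. Gsx2, a ParaHox gene of the forebrain, had no peak in its body and stood 41.0 kb from the next one towards Pdgfra.

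The peaks that separate the genes on chromosome 5 fell into groups with long gaps between them. Between the facing ends of Fip1l1 and Pdgfra, 553 kb apart, there were 8 peaks, or 1.45 per 100 kb. Chromosome 5 had 1.11 per 100 kb and the genome 0.855. Of the 8 peaks, 2 lay in Lnx1, at chr5:74618770-74618991 and chr5:74641144-74641463. Another 4 lay between Lnx1 and Chic2 over 165 kb, of which the 2 nearest to Chic2 stood in the long non-coding RNA genes Gm52779 (chr5:74944097-74944337) and Gm6116 with Gm52778 (chr5:74961226-74961457). The last 2, at chr5:75118933-75119179 and chr5:75143327-75143527, stood in the long non-coding RNA gene Gm19583 between Gsx2 and Pdgfra. Thus Chic2 had 6 peaks between it and Fip1l1 and 2 between it and Pdgfra.

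Pdgfra and Kit were 377 kb apart with 2 peaks between them, both on the Pdgfra side. The first was the peak 11.8 kb past Pdgfra and the second was chr5:75372920-75373301, whose 382 bp made it the widest of the stretch. That peak was wider than 88.2% of the list. Counted from start site to start site the number was 5, because the 3 peaks of the Pdgfra body come in. With peaks of at least median width only, 1 peak, the wide one, remained between the 2 gene bodies.

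Kit and Kdr were 276 kb apart with 3 peaks between them. These stood at chr5:75853187-75853380, chr5:75862692-75862926 and chr5:75871205-75871428, within 18.2 kb of one another, and all nearer to Kdr than to Kit. They were narrow, at 194, 235 and 224 bp, and none was left when peaks under the median width were set aside.

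A peak between 2 neighbouring genes was not unusual at such distances. Of 19643 neighbouring protein-coding pairs with a gap between their facing ends, 31.8% had at least 1 peak between them. Of the 976 pairs 200 to 500 kb apart, 60.6% did, with a median of 1 peak and quartiles of 0 and 2. The 2 peaks between Pdgfra and Kit equalled the upper quartile of that class. The 3 peaks between Kit and Kdr and the 4 between Lnx1 and Chic2 (302 kb) were above it. Per 100 kb, there were 0.531 peaks between Pdgfra and Kit and 1.09 between Kit and Kdr. Chromosome 5 had 1.11 per 100 kb and the genome 0.855.

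**Figure D2:**
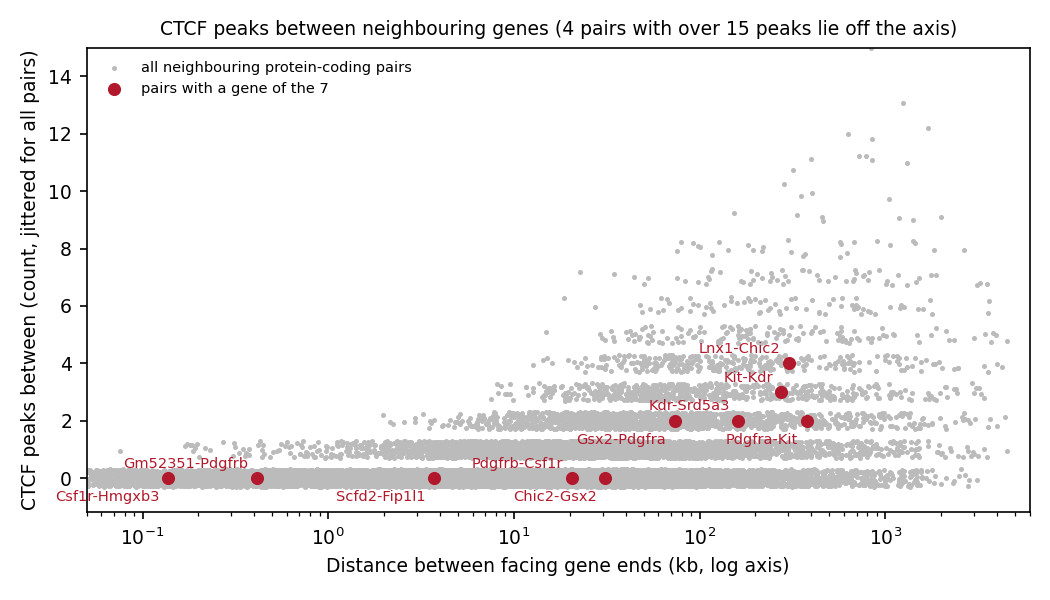
Number of CTCF peaks between facing ends of neighbouring protein-coding genes against their distance in kb on a log axis. Grey points are all 19643 pairs, jittered in height, and red points are the pairs that include 1 of the 7 genes, from 0 peaks for Pdgfrb and Csf1r to 4 for Lnx1 and Chic2.

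Pdgfrb, the receptor gene of pericytes, smooth muscle cells and fibroblasts, had CTCF inside its body and close to its lower-coordinate end. The strand of the genes on chromosome 18 was not given in the tables used, so ends are named by coordinate. The body (gene ID 18596, chr18:61045127-61085067) held 1 peak of 192 bp at chr18:61068480-61068671, narrower than most of the list, in which 10.1% of peaks were narrower still. A second peak, chr18:61039816-61040138, ended 4.99 kb below the body and was 323 bp wide. It stood in the predicted gene Gm52351, which fills the space between Pdgfrb and Cdx1. Cdx1, a caudal-type homeobox gene related to Cdx2, had no peak in its body, and the same peak lay 3.62 kb from it. On the higher-coordinate side the first peak lay 105 kb from Pdgfrb.

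Csf1r, the receptor gene of macrophages, held no peak in its body (gene ID 12978, chr18:61105572-61131139), and none lay in the 20.5 kb between it and Pdgfrb. Of the 7090 neighbouring pairs 10 to 50 kb apart, 34.2% had a peak between, so the lack of one is the common case. The nearest peak to Csf1r was the one inside the Pdgfrb body, 36.9 kb away. On the other side the first peak, chr18:61189818-61190038, began 58.7 kb from Csf1r, beyond Hmgxb3 and before the sulphate transporter gene Slc26a2. The peak-free span of 121 kb between these took in the higher-coordinate end of Pdgfrb, the whole of Csf1r and Hmgxb3. Of all gaps between peaks, 20.2% were at least as long, and 41.7% of protein-coding genes lay whole in a peak-free span of at least this length.

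Peaks stood on both sides of the pair. The window of Pdgfrb held 9 peaks and that of Csf1r 10, all but 1 of them shared. On the lower-coordinate side 4 peaks stood within 47.1 kb, of which 3 lay in Camk2a, a neuronal calcium-dependent kinase gene, and 1 lay 1.05 kb past its end. On the higher-coordinate side 2 lay in Slc26a2, 442 bp apart, and 1 in Ppargc1b, which encodes a coactivator of mitochondrial genes.

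**Figure D3:**
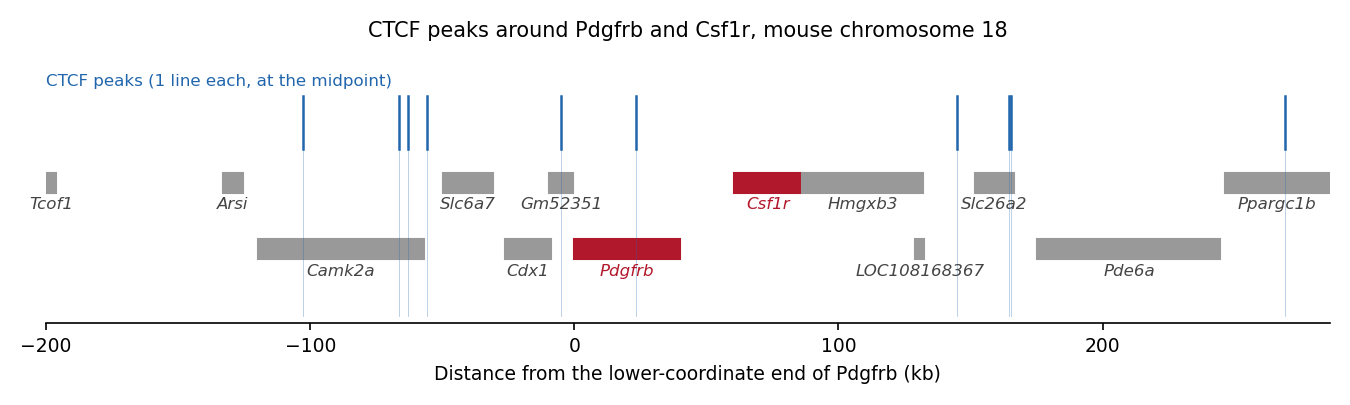
Map of the chromosome 18 stretch, with distance from the lower-coordinate end of Pdgfrb in kb on the horizontal axis, the 2 receptor genes in red, other protein-coding genes in grey and each CTCF peak as a blue line at its midpoint. No line falls between the peak in the Pdgfrb body and the one before Slc26a2, a span of 121 kb that holds Csf1r.

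Across the set, 2 of the 7 genes, the PDGF receptor genes Pdgfra and Pdgfrb, had a peak in the body, and Fip1l1, Chic2, Kit, Kdr and Csf1r had none. Of protein-coding genes of 20 to 100 kb, 40.1% had one, and of all protein-coding genes 29.5% did. The share among the 7 was near these backgrounds. No peak stood within 1 kb of either end of any of the 7, and 12.0% of protein-coding genes had a peak so placed. The distances to the first flanking peaks ran from 4.99 kb below Pdgfrb to 202 kb below Kit.

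**Figure D4:**
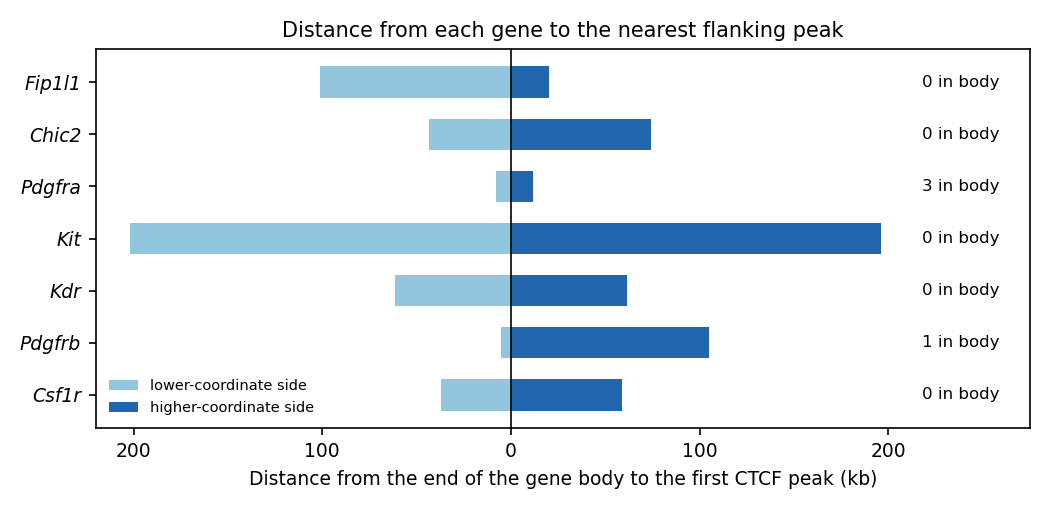
Distance in kb from the end of each gene body to the first CTCF peak on its lower-coordinate side (light blue, to the left) and its higher-coordinate side (dark blue, to the right), with the number of peaks in the body at the right. Pdgfra has short bars on both sides, Pdgfrb on the lower side only, and Kit has about 200 kb on each side.

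Counts in the body and 200 kb each side were 4 for Fip1l1, 9 for Chic2, 8 for Pdgfra, 1 for Kit, 6 for Kdr, 9 for Pdgfrb and 10 for Csf1r. Their median of 8 stood beside 6 over all protein-coding genes, with quartiles of 2 and 11, and Kit alone fell outside these quartiles. The Kit count turned on the window edge, since a further peak ended 202 kb before its body. Windows of neighbouring genes overlap, so the counts come from 20 distinct peaks on chromosome 5 and 10 on chromosome 18. The chromosome 5 stretch had 1.08 peaks per 100 kb against 1.11 over that chromosome. The chromosome 18 stretch had 2.06 per 100 kb against 0.634 over that chromosome and 0.855 over the genome. Windows of body and 200 kb each side of all protein-coding genes, which like these stretches are placed on genes, had a median of 1.41 per 100 kb with quartiles of 0.493 and 2.58. Both stretches lay within these quartiles, though the chromosome 5 stretch is longer than a single-gene window of most genes. The chromosome 18 density varied with the flank, from 2.80 per 100 kb with 100 kb each side to 1.84 with 500 kb. The quartiles were not recomputed for those flanks. Of the windows of the 7 genes, that of Kit alone, with 0.208 per 100 kb, lay outside the quartiles of 0.493 and 2.58. The chromosome 18 stretch is also denser in genes than the chromosome 5 stretch, with 13 protein-coding genes in 486 kb against 9 in 1840 kb. Peak widths ran from 194 to 382 bp on chromosome 5 and from 184 to 364 bp on chromosome 18, and 6 of 20 and 4 of 10 reached the median of the list.

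**Figure D5:**
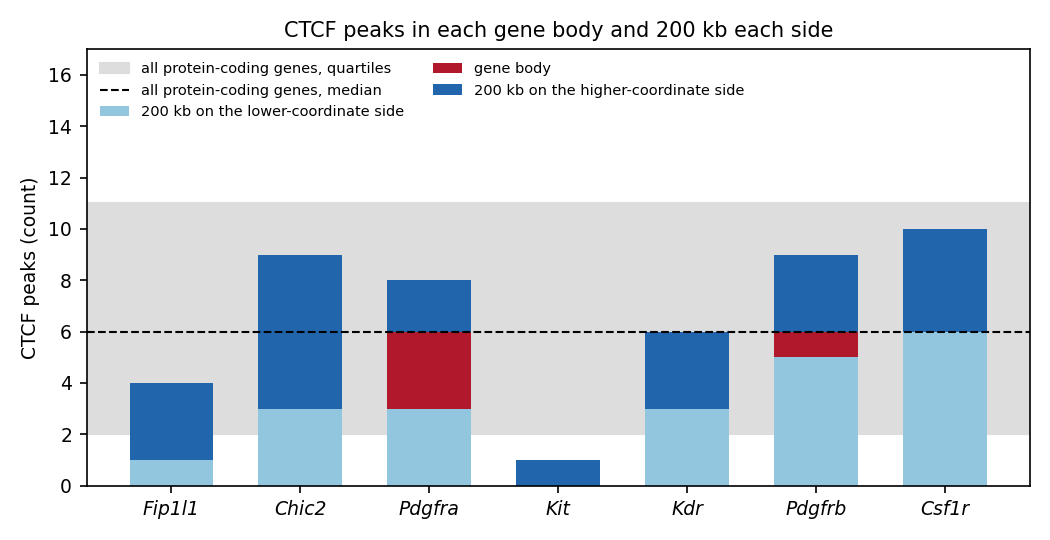
Number of CTCF peaks in the 200 kb on the lower-coordinate side, the gene body and the 200 kb on the higher-coordinate side of each gene, stacked. The grey band gives the quartiles (2 and 11) and the dashed line the median (6) over all protein-coding genes, and only Kit, with 1 peak, lies outside the band. A further peak lay 202 kb from Kit, just beyond its window.

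Other genes of the same signalling routes were read in 4 lists chosen with earlier results of these data known. Among 13 ligand genes, 6 had a peak in the body and 2 had one at an end (within 1 kb), beside 29.5% and 12.0% of all protein-coding genes. Counting the body and 10 kb each side, 7 of the 13 had a peak, beside 50.8% of all. In the body or within 10 kb, the VEGF genes Vegfa and Vegfb each had 3 peaks while Vegfc and Vegfd had none, and the CSF1 receptor ligand genes Csf1 and Il34 and the FLT3 ligand gene Flt3l had 2 each. The PDGF genes Pdgfa, Pdgfb and Pdgfd and the stem cell factor gene Kitl had none there, and Pdgfc had 1. No peak lay within 200 kb of Kitl or of Vegfc. Pdgfb had 31 peaks within 200 kb.

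All 5 of the other receptor genes had a peak in the body, beside 29.5% of all protein-coding genes and 40.1% of those of 20 to 100 kb. Flt1, Nrp1 and Nrp2 are longer than 100 kb, and no share for genes of their length was computed. Flt3, Flt1 and Flt4, the remaining class members and VEGF receptor genes, held 3 each and 6, 4 and 4 within 10 kb, and the VEGF co-receptor genes Nrp2 and Nrp1 held 3 and 1 in the body. Flt3 and Flt1 also lie on chromosome 5, 161 kb apart, with 1 peak between them.

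Of 15 adaptor and effector genes, 11 had a body peak and 2 an end peak. The highest counts in the body or within 10 kb were at the tyrosine kinase gene Src, with 5, and at Grb2 and Crk, with 3 each. Of 9 genes of inhibitors and receptor turnover, 6 had a body peak and 3 an end peak. The ubiquitin ligase gene Cbl, the phosphatase gene Ptpn1 and the cytokine signalling inhibitor gene Socs1 led with 3 each within 10 kb, and the Sprouty gene Spry2 had 2. Over these 4 lists 28 of 42 genes had a body peak and 9 an end peak, beside 29.5% and 12.0% of all protein-coding genes. Gene length was not taken into account in these counts.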

How the data were processed

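CTCF immunoprecipitations with and without doxycycline and 1 input were sequenced as paired-end reads of 37 nt, the immunoprecipitations with a Drosophila chromatin spike-in, per the labels' protocols. The builds mm10 and dm6 and the programs MACS2, Picard and STAR are named, with neither role nor version, per the submitters' processing notes. The sources used here do not give the peak threshold, the handling of duplicates, the way peaks were merged or the use of the spike-in. The authors deposited 1 list of merged peak intervals with 3 columns (chromosome, start, end), whose unit is a position. No count or score stands in it, so no test, p-value or replicate comparison was made.

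Positions were counted from 1. A peak was placed by its midpoint, and distances run between the edges of peaks and gene bodies except from start sites, where midpoints were used. The 49997 RefSeq genes (GRCm38.p6) were reduced to 49603 on chromosomes 1 to 19, X and Y, without 340 placed below 3 Mb outside chromosome Y. Strand came from the RefSeq promoter table. Counts were made with Python 3.11.15 and pandas 2.3.3, and the counting was tested on simulated peaks. The genes, lists, size classes and thresholds were chosen with earlier results of these data known. Named were the 7 genes, protein-coding genes of both stretches, and up to 4 genes per list with most peaks within 10 kb, beside others chosen after their values were seen (Vegfc, Vegfd, Pdgfa, Pdgfb, Pdgfc, Pdgfd, Kitl, Flt3l, Nrp1 and the non-coding genes at peaks). Alternatives were flanks of 100 and 500 kb, any overlap, peaks of at least median width, peaks under 500 bp apart merged, start sites in place of gene ends, end windows of 500 bp and 2.5 kb, and autosomal genes as background. An item of the adaptor list is not reported here. Motif orientation and peak sequences were not analysed here.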

Additional observations from a re-analysis of the deposited data

How the results depend on the processing

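Placing peaks by any overlap or merging peaks under 500 bp apart left each of the 13 densities and counts recomputed within 1.5 times its value. Keeping peaks of at least median width removes the narrow ones by construction. It gave 0.325 peaks per 100 kb on the chromosome 5 stretch and 0.823 on the chromosome 18 stretch, 2 peaks between Fip1l1 and Pdgfra, 1 between Pdgfra and Kit and 0 between Kit and Kdr. The windows then held 1 peak for Fip1l1, 3 for Chic2, 3 for Pdgfra, 0 for Kit, 1 for Kdr, 3 for Pdgfrb and 4 for Csf1r. From start site to start site, Pdgfra and Kit had 5 peaks between them, and no strand was at hand for Pdgfrb and Csf1r. Flanks of 100 kb gave 2 peaks for Fip1l1, 4 for Chic2, 0 for Kit and 5 each for Pdgfrb and Csf1r. Flanks of 500 kb gave 8 for Fip1l1, 13 for Kit and 20 each for Pdgfrb and Csf1r. The chromosome 5 stretch had 1.03 peaks per 100 kb with flanks of 100 kb and 0.859 with 500 kb. For the chromosome 18 stretch these densities were 2.80 and 1.84. The absence of a peak between Pdgfrb and Csf1r held under any overlap, at least median width and merging. No gene of the 7 gained an end peak within 500 bp or 2.5 kb. Against autosomal genes the share of genes with fewer peaks fell for all 7, for Kit from 12.0% to 8.79%. No paired analysis was possible because the merged list ties no peak to a library, and for the same reason no library could be left out. Depth is unknown, so whether an empty span lacked CTCF or reads cannot be told apart.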
